A study of Drosophila melanogaster with 58 samples.

Results

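Flies fed pentylenetetrazole (PTZ) together with mannitol were set against flies fed PTZ with one of 5 other compounds. The combination labelled PTZ+ Mannitol has 4 of the 58 arrays of the series, and it was chosen by its label alone. The 5 groups it was compared with, at 4 arrays each and 20 in all, are labelled PTZ+Levetiracetam, PTZ+ Glucosamine Hydrochloride, PTZ+ Olmesartan Medoxonil, PTZ+ Quinapril Hydrochloride and PTZ+ Oxaprozin. Each group counted equally in their mean. Every fly in these groups, on both sides of the comparison, had eaten PTZ, so the difference between them is no measure of the effect of PTZ itself. A second comparison, without PTZ, set the 4 Mannitol arrays against 16 arrays of flies fed Levetiracetam, Glucosamine Hydrochloride, Olmesartan Medoxonil or Quinapril Hydrochloride. All were Oregon R flies, a common wild-type laboratory strain. They were unmated adult males, 10 days old at collection, kept 30 to a vial at 25 degrees C on the diet for 7 days, and RNA came from their heads. No source used here states the doses, or whether each array of a group stands for a culture of its own. The p-values below therefore measure the spread between arrays, which may be technical. The series title speaks of screening drugs in flies for new uses in neuropsychiatry.

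PTZ is a convulsant that blocks GABA-A receptors, the chloride channels through which most fast inhibition in the brain passes, and it is widely used to model seizures. Mannitol is a sugar alcohol that most animal cells take up poorly, used in medicine as an osmotic agent. Among the 5 comparators, levetiracetam is an antiseizure drug that binds a synaptic vesicle protein, glucosamine an amino sugar, olmesartan an angiotensin receptor blocker given as its medoxomil ester, quinapril an inhibitor of angiotensin-converting enzyme, and oxaprozin a non-steroidal anti-inflammatory drug. In flies, infection and stress act on the fat body and on haemocytes, the blood cells, and the fat body lining the head capsule secretes antimicrobial peptides through the Toll and Imd pathways.

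The values are log2 levels made by the authors, and every difference is PTZ+ Mannitol minus the mean of the other 5 group means, in log2 units ± SE, with adjusted p-values from limma. Rose, fell and changed are used for an adjusted p under 0.05. Head tissue was present in the PTZ+ Mannitol arrays: the median level over 21 phototransduction and retina genes was 9.61 to 9.64. Over 63 testis and accessory gland genes it was 2.90 to 2.98, close to the lower end of the scale. That list was at 5.15 to 5.32 in normal food arrays, also labelled as heads, so its level does not test the label. Muscle markers were at 8.38 to 8.45 in PTZ+ Mannitol, and apolipoprotein and lipid transport genes at 9.35 to 9.40. Whether tissue from outside the head was present was not tested. All 24 arrays of the 6 combinations correlated best with an array of their own group. A 5′ to 3′ measure of the array's control genes, which falls with shorter labelled RNA, averaged -5.55 ± 0.09 (SD, n = 4) in PTZ+ Mannitol, against group means of -5.81 to -5.58 for the quinapril, olmesartan and glucosamine combinations, -4.73 for oxaprozin and -4.14 for levetiracetam. The hybridization control bioB, set against bioC, was at an upper level in PTZ+ Mannitol (-1.02 to -0.98) and in the glucosamine combination (-1.13 to -1.03), and at -4.24 to -3.87 in the other 4. Both features move with the groups, and their part in the results was not tested beyond the alternatives given here. As a covariate or block each was fitted beside the group means, so its effect was estimated only from arrays that differ within a group. For bioB these are olmesartan and quinapril without PTZ, with 1 array each at the upper level. These settings cannot separate either feature from the groups.

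Of 18769 probe sets, 3762 rose and 4585 fell in PTZ+ Mannitol, together 44.5% of those tested. Most differences were small: 89 probe sets rose and 87 fell at least 2-fold. The 4 arrays lay above all 20 others for 1222 probe sets and below them for 969, together 11.7%. Against each of the 5 combinations separately, 1312 probe sets rose and 1155 fell 5 times out of 5, together 13.1%. The same calculation with each of the other combinations in the place of PTZ+ Mannitol gave 23 to 163 probe sets changed at least 2-fold and 167 to 2525 outside the range of the rest. The levetiracetam combination gave the highest of these, so a large distance from the others is not particular to PTZ+ Mannitol. At 1 probe set a gene, 24.5% of 11982 genes rose and 27.0% fell, and the median difference over all genes was 0.01. The 4 arrays lay above the other 20 for 8.65% of genes and below them for 5.98%. These shares are the background for the gene groups that follow.

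Antimicrobial peptides rose together. DptB (Diptericin B), a peptide induced through the Imd pathway, had levels of 8.90, 8.90, 8.89 and 8.99 in the PTZ+ Mannitol arrays, against a lowest of 5.92, a median of 6.29 and a highest of 6.89 in the other 20. The 4 values lie close together and clear of every other array. DptB rose by 2.56 ± 0.05 (adjusted p = 1.67e-40), which is 5.90-fold. Drs (Drosomycin), the classical Toll-induced antifungal peptide, had 10.10, 10.05, 10.02 and 10.09 in PTZ+ Mannitol, against 7.52, 7.79 and 8.19 as the lowest, median and highest of the others. The 2 sets do not overlap, and Drs rose by 2.21 ± 0.04 (adjusted p = 5.93e-42).

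Mtk (Metchnikowin), another antifungal peptide, had 9.98, 9.92, 9.90 and 9.99 in PTZ+ Mannitol, against 7.92 to 8.80 with a median of 8.14. The highest of the others came from the quinapril combination, whose mean was 8.76, and the rise was 1.72 ± 0.03 (adjusted p = 1.16e-38). BomBc3, one of the Bomanins, short peptides induced by Toll signalling, rose by 1.03 ± 0.04 (adjusted p = 4.16e-28). Def (Defensin) rose by 0.93 ± 0.04 (adjusted p = 1.4e-25). Of the 18 measured antimicrobial peptides and Toll or Imd effectors, 14 rose, 1 fell and 3 did not pass the test, with a median difference of 0.44. The 4 arrays were above all the others for 9 of them and below for 0. The counts were 13 to 14 risen and 1 to 2 fallen under 5 other settings of the comparison. These were the 5′ to 3′ measure as a covariate, the bioB level as a block, a mean without levetiracetam and oxaprozin, the glucosamine combination alone, and a second quantile normalization.

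Drsl4, a Drosomycin-like gene, was the one that fell, and it is named here because it was the exception, after its value was seen. Its level was 8.62 to 8.68 in PTZ+ Mannitol, against 8.55 to 10.37 in the others, so the arrays overlap, and it fell by 0.84 ± 0.04 (adjusted p = 4.06e-25). The quinapril combination, at a mean of 8.66, was as low. The sensors upstream did not move as one: of 13 peptidoglycan recognition genes 3 rose, 5 fell and 5 did not pass the test. PGRP-SB1, a secreted amidase that degrades peptidoglycan, rose by 0.75 ± 0.03 (adjusted p = 2.38e-24). PGRP-LF, a membrane protein that dampens Imd signalling, rose by 0.60 ± 0.05 (adjusted p = 8.16e-15). GNBP3, which senses fungal glucans for the Toll pathway, fell by 0.60 ± 0.05 (adjusted p = 2.4e-16), and by 0.23 without levetiracetam and oxaprozin. As a plain level, the median over the 18 effectors was 9.81 to 9.88 in PTZ+ Mannitol, 8.17 to 8.81 in the other combinations and 9.86 to 9.94 in flies fed PTZ with no second compound. DptB and Drs averaged 8.94 and 10.07 in those flies, beside 8.92 and 10.07 in PTZ+ Mannitol. The flies fed PTZ alone are outside the comparison and were not tested against the others here.

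**Figure D1:**
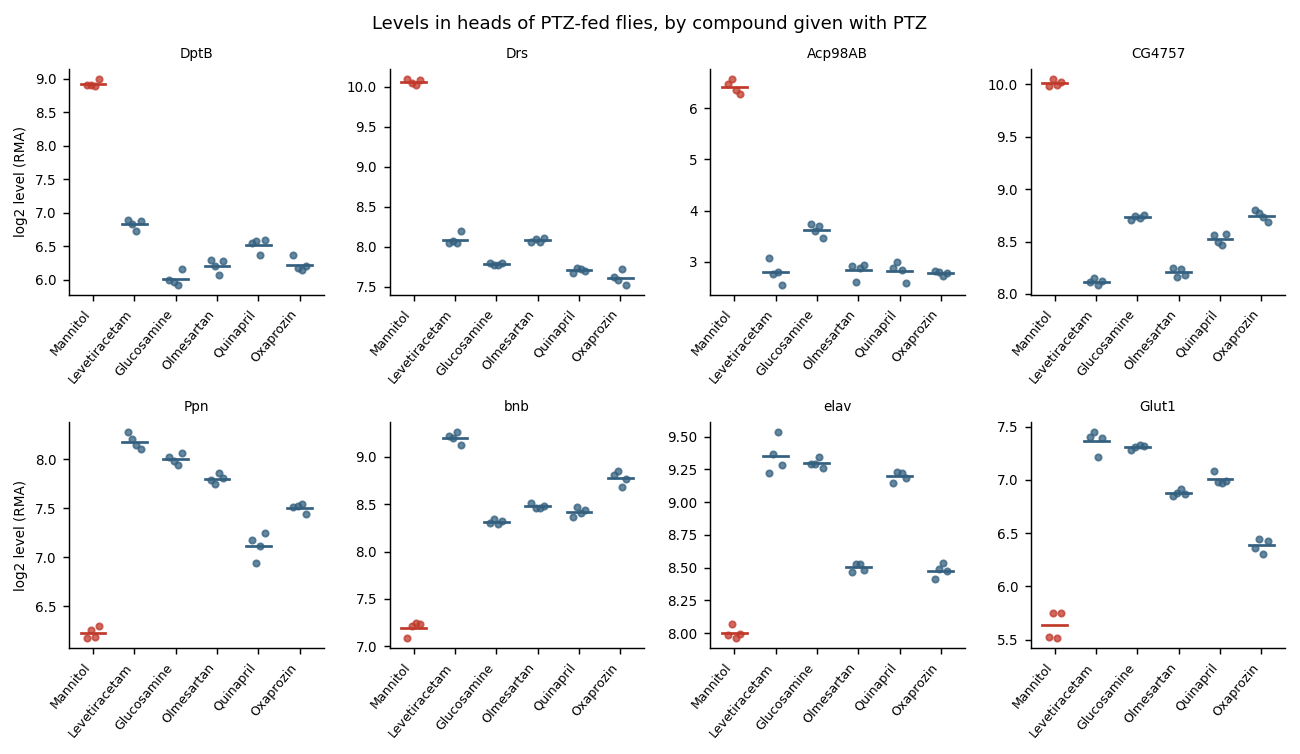
Log2 levels (y axis, RMA) of 8 genes in single arrays (points) of the 6 PTZ combinations, named on the x axis by the second compound, with group means as lines and PTZ+ Mannitol in red at the left. DptB, Drs, Acp98AB and CG4757 lie above all other arrays in PTZ+ Mannitol, at means of 8.92, 10.07, 6.42 and 10.01, and Ppn, bnb, elav and Glut1 below them, at 6.23, 7.19, 8.00 and 5.63.

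Several genes of the haemocyte marker list fell, led by those for basement membrane. Ppn (Papilin), an extracellular matrix protein, had 6.17, 6.26, 6.18 and 6.30 in PTZ+ Mannitol, against a lowest of 6.94, a median of 7.80 and a highest of 8.28 in the others. It fell by 1.49 ± 0.04 (adjusted p = 8.14e-35). Among the others the quinapril combination was nearest, at a mean of 7.12, and levetiracetam farthest, at 8.18. The 2 collagen IV chains fell as well: vkg by 1.13 ± 0.05 (adjusted p = 4.77e-26) and Col4a1 by 1.04 ± 0.05 (adjusted p = 2.67e-24). Hml (Hemolectin), a clotting protein and the most used haemocyte marker, had 4.77, 4.63, 4.75 and 4.69 in PTZ+ Mannitol, against 5.09, 5.65 and 6.45 as the lowest, median and highest of the others. Its arrays do not overlap with the rest, and it fell by 1.02 ± 0.05 (adjusted p = 1.23e-24). Sr-CI, a scavenger receptor of haemocytes, fell by 0.85 ± 0.07 (adjusted p = 2.59e-15).

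Of 25 measured haemocyte markers 11 fell and 5 rose, and the median difference was -0.05, so the list as a whole did not move with its leading members. Fallen markers numbered 10 to 13 under the other 5 settings, and risen ones 1 to 5. The median level over the list was 4.76 to 4.95 in PTZ+ Mannitol and 4.70 to 5.56 in the others. In whole heads, fewer cells of a type and less RNA per cell cannot be told apart, here and for every cell type named below.

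Genes of the male accessory gland and ejaculatory tract were also higher, although heads were sampled, and one of them rose more than any other gene. Acp98AB, an accessory gland protein, had 6.48, 6.57, 6.35 and 6.27 in PTZ+ Mannitol, against 2.55, 2.86 and 3.74 as the lowest, median and highest of the others. It rose by 3.44 ± 0.09 (adjusted p = 7.6e-34), or 10.9-fold, but the others are near the lower end of the scale, where the size of a fold is uncertain. EbpII (Ejaculatory bulb protein II) rose by 1.65 ± 0.09 (adjusted p = 3.15e-22), to 3.64 to 4.12 in PTZ+ Mannitol against 1.92 to 3.00. Mst57Da, SP (Sex Peptide) and Dup99B, which also encode proteins of seminal fluid or its ducts, rose by 1.31 ± 0.08, 1.22 ± 0.09 and 1.17 ± 0.08. Against the glucosamine combination alone the rise was 1.01 for EbpII and 0.77 for Dup99B.

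In all, 33 of 63 testis and accessory gland genes rose and 8 fell, with a median difference of 0.20. Only 19 rose with the glucosamine combination as the single comparator and 20 with the bioB level as a block, and fallen ones numbered 2 to 9 under the 5 settings. Levels stayed low in the combinations: the median over the list was 2.90 to 2.98 in PTZ+ Mannitol and 2.53 to 2.87 in the others. It was 5.15 to 5.32 in flies on normal food. In flies fed PTZ alone, not tested against the others here, it was 2.85 to 3.01, beside the level of PTZ+ Mannitol. Mst57Da was at 5.34 to 5.68 with PTZ alone and at 4.61 to 5.32 in PTZ+ Mannitol. Acp98AB was at 4.73 to 5.16 and 6.27 to 6.57. Whether tissue from outside the head contributed was not tested.

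The 14 greatest rises were taken only from genes without overlap between the arrays. The others among them have varied or unknown roles. CG4757 had 9.98, 10.05, 10.00 and 10.02 in PTZ+ Mannitol, against 8.09, 8.53 and 8.80 as the lowest, median and highest of the others, and rose by 1.55 ± 0.03 (adjusted p = 6.85e-41). Its arrays are more than 1 unit clear of the rest at a high level. Sid (Stress induced DNase) had 9.29, 9.36, 9.45 and 9.29, against 7.11 to 8.76 with a median of 7.63, and rose by 1.52 ± 0.04 (adjusted p = 4.34e-35). The quinapril combination came nearest, at 8.71. Ag5r, of the antigen 5 family of secreted proteins, rose by 1.54 ± 0.09 (adjusted p = 5.55e-21). CG16826, CG18628, whe, CG30050, l(3)80Fg and CG33468 rose by 1.42 to 1.87. Against the glucosamine combination alone, the rise was 1.08 for CG18628 and 1.03 for whe. For l(3)80Fg a second probe set gave 1.45 beside 1.46.

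The 14 greatest falls were likewise taken only from genes without overlap. Among these, bnb (bangles and beads) had 7.09, 7.21, 7.24 and 7.24 in PTZ+ Mannitol, against 8.29, 8.48 and 9.26 as the lowest, median and highest of the others. It fell by 1.44 ± 0.03 (adjusted p = 9.68e-39), and the lowest of the other arrays is still over 1 unit higher. Mnt, a partner of Max that opposes Myc, fell by 1.40 ± 0.06 (adjusted p = 1.75e-25). Obp28a, an odorant-binding protein, fell by 1.26 ± 0.06, but the levetiracetam and glucosamine combinations, at means of 4.87 and 4.90, were near its PTZ+ Mannitol mean of 4.62 while quinapril was at 7.11. Against glucosamine alone the difference was -0.27. Rbp6, an RNA-binding protein related to Musashi, fell by 1.46 ± 0.06 (adjusted p = 5.29e-26) on its brightest probe set, and by 0.22 and 0.17 on 2 of its 5 dimmer probe sets, while the other 3 did not pass the test. CG7332, CG15465, Amun, CG12071 and CG32700 fell by 1.26 to 1.47.

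Genes used by all neurons fell together. elav, the RNA-binding protein that defines neurons, had 7.98, 8.07, 7.96 and 8.00 in PTZ+ Mannitol, against 8.41, 9.20 and 9.53 as the lowest, median and highest of the others. It fell by 0.96 ± 0.04 (adjusted p = 1.23e-26). The other combinations fall into 2 ranges for elav: means of 9.20 to 9.35 for quinapril, glucosamine and levetiracetam, and of 8.48 and 8.50 for oxaprozin and olmesartan. nSyb, the neuronal synaptobrevin of vesicle fusion, had 7.72, 7.66, 7.67 and 7.72, against 7.91 to 9.43 with a median of 8.51, and fell by 0.94 ± 0.04 (adjusted p = 2.87e-24). brp (Bruchpilot), the scaffold of the presynaptic active zone, fell by 1.17 ± 0.07 (adjusted p = 1.02e-20) on its brightest probe set, and its 3 other, dim probe sets did not pass the test. futsch, the fly relative of the microtubule protein MAP1B, fell by 1.05 ± 0.03 (adjusted p = 5.03e-33) on its brightest probe set, by 0.20 on another, and its other probe set did not pass.

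Of 15 pan-neuronal markers 12 fell, 0 rose and 3 did not pass the test in limma, with a median difference of -0.52. Without jim, Mmp2 and Pp2C1, which are also used outside neurons and were picked out after their values were seen, 9 of 12 fell. The number of the 15 that fell was 9 to 11 under the 5 other settings. The median level over the list was 8.32 to 8.38 in PTZ+ Mannitol and 8.47 to 9.41 in the others, with the olmesartan combination the nearest.

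Ion channel genes fell more often than they rose. Hk (Hyperkinetic), the beta subunit of the Shaker potassium channel, had 6.45, 6.47, 6.56 and 6.59 in PTZ+ Mannitol, against 6.60, 7.92 and 8.98 as the lowest, median and highest of the others. It fell by 1.39 ± 0.04 (adjusted p = 1.48e-31), and by 0.19 and 0.17 on its 2 dimmer probe sets. The olmesartan combination, at a mean of 6.69, was only slightly higher, while the other 4 had means of 7.77 to 8.89. para, the voltage-gated sodium channel, fell by 0.80 ± 0.08 (adjusted p = 2.52e-12), though its arrays overlap with the rest. Teh2, an auxiliary subunit of that channel, fell by 0.93 ± 0.06 (adjusted p = 5.17e-20), and Shaw, a potassium channel, by 0.72 ± 0.05 (adjusted p = 3.38e-16), with overlap. Without levetiracetam and oxaprozin the differences were -0.55 for Teh2 and -0.39 for Shaw. Of 25 voltage-gated and potassium channel genes 15 fell and 0 rose, and 10 did not pass the test in limma; 14 to 16 fell and 0 to 1 rose under the other settings.

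Rdl, the main GABA-A receptor subunit of flies and thus related to the target of PTZ, had 8.33, 8.35, 8.42 and 8.42 in PTZ+ Mannitol, against 8.34, 9.49 and 9.94 as the lowest, median and highest of the others. It fell by 0.96 ± 0.04 (adjusted p = 1.76e-27), and the overlap comes from the olmesartan combination, at a mean of 8.50. Gs2, the glutamine synthetase of glia, had 11.09, 11.13, 11.09 and 11.07, against 11.80 to 12.12, and fell by 0.84 ± 0.02 (adjusted p = 6.71e-32). Here all 5 other combinations were alike, with means of 11.81 to 12.07. Ekar, a kainate-type glutamate receptor of the eye, went the other way and rose by 0.65 ± 0.03 (adjusted p = 1.3e-26), and by 0.40 against the glucosamine combination alone. Of 22 GABA and glutamate genes 13 fell and 2 rose; with the bioB level as a block 8 fell.

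Among 24 monoamine genes 12 fell and 3 rose. e (ebony), which joins beta-alanine to dopamine and histamine, had 4.90, 4.87, 4.97 and 4.77 in PTZ+ Mannitol, against 5.05, 6.39 and 7.42 as the lowest, median and highest of the others. It fell by 1.28 ± 0.05 (adjusted p = 6.61e-27), although the glucosamine combination, at a mean of 5.08, was hardly higher. The difference was -0.83 without levetiracetam and oxaprozin, and -0.21 against glucosamine alone. DopEcR, a receptor for dopamine and ecdysteroids, fell by 1.06 ± 0.03 (adjusted p = 3.95e-31), and Dop1R1, a dopamine receptor, by 0.62 ± 0.05 (adjusted p = 3.63e-14) with overlap. Of 22 synaptic vesicle and active zone genes 11 fell and 2 rose, and of 14 cholinergic genes 9 fell and 1 rose.

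**Figure D2:**
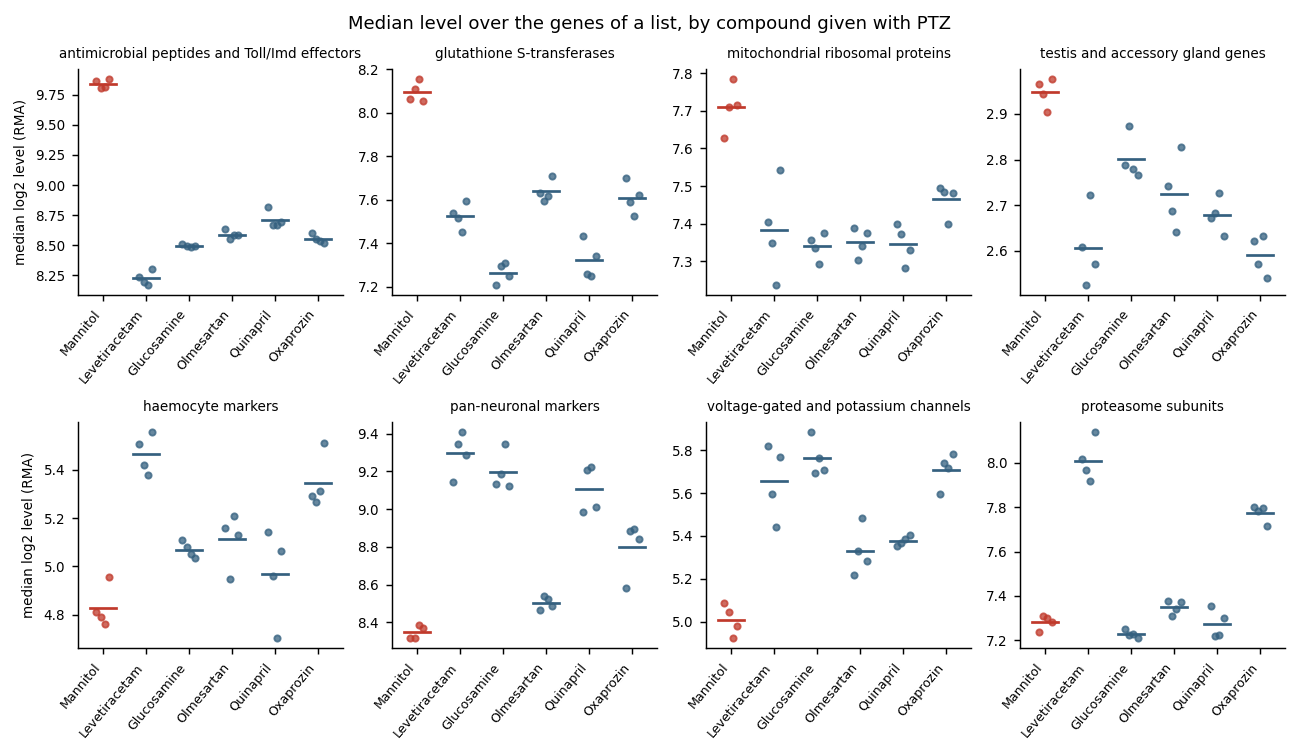
Median log2 level (y axis, RMA) over the genes of 8 lists in single arrays (points) of the 6 PTZ combinations, named by the second compound, with group means as lines. PTZ+ Mannitol, in red at the left, is above the others for antimicrobial peptides (9.81 to 9.88 against 8.17 to 8.81), glutathione S-transferases and mitochondrial ribosomal proteins, and below them for pan-neuronal markers (8.32 to 8.38 against 8.47 to 9.41) and channels.

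Neuropeptide genes went both ways. SIFa, a peptide made by a few cells of the pars intercerebralis, had 7.52, 7.46, 7.39 and 7.53 in PTZ+ Mannitol, against 5.97, 6.60 and 6.88 as the lowest, median and highest of the others. It rose by 1.01 ± 0.05 (adjusted p = 2.87e-24). NPF (neuropeptide F), which promotes feeding and is made in brain and gut, had 8.71, 8.70, 8.68 and 8.76, against 7.20 to 8.12 with a median of 7.82, and rose by 1.01 ± 0.05 (adjusted p = 1.38e-24). Both are clear of every other array. Capa and Orcokinin rose by 0.75 ± 0.06 and 0.71 ± 0.05 with no overlap. Nplp3 fell by 0.68 ± 0.03 (adjusted p = 1.19e-27).

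In all 14 of 28 neuropeptide genes rose and 9 fell, with a median of 0.10. The split depended on the comparator: against the glucosamine combination alone 7 rose and 10 fell. Ilp5, one of the insulin-like peptides made by the insulin-producing cells of the brain, had 9.09, 9.04, 9.03 and 9.06, against 7.24, 8.16 and 8.65 as the lowest, median and highest of the others. It rose by 0.96 ± 0.03 (adjusted p = 8.46e-29), or by 0.42 against the glucosamine combination alone, and Ilp2, made in the same cells, by 0.63 ± 0.04 (adjusted p = 3.31e-21). foxo, the transcription factor that insulin signalling restrains, fell by 0.43 ± 0.04 (adjusted p = 4.5e-12). Of 18 insulin, FOXO and starvation genes 8 rose and 4 fell.

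Of 16 activity-regulated genes 8 rose and 5 fell. Irbp18, a bZIP factor of the C/EBP family, had 9.65, 9.68, 9.59 and 9.65 in PTZ+ Mannitol, against 8.23, 8.81 and 8.99 as the lowest, median and highest of the others, and rose by 0.95 ± 0.03 (adjusted p = 4.2e-33). Arc2, a capsid-forming relative of mammalian Arc, rose by 0.49 ± 0.07 (adjusted p = 2.22e-08). Hr38, a nuclear receptor induced by neuronal firing, rose by 0.45 ± 0.04 (adjusted p = 5.81e-15) on its brighter probe set, and its dim one did not pass the test.

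Mannitol can enter sugar metabolism through polyol dehydrogenases, hexokinases and mannose phosphate enzymes, and these genes showed no shared direction. Of 14 measured 3 rose and 6 fell, with a median of -0.07, and 4 to 7 fell under the other settings. One of the 6, mfrn, is a mitochondrial iron carrier, and without it 5 of 13 fell. Sodh1, a sorbitol dehydrogenase, had 9.59, 9.63, 9.66 and 9.63 in PTZ+ Mannitol, against 9.44, 9.80 and 10.61 as the lowest, median and highest of the others. Its fall of 0.31 ± 0.04 (adjusted p = 3.9e-09) rests on the levetiracetam and oxaprozin combinations, at means of 10.48 and 10.35. Without those 2 the difference was 0.011. Hex-A, a hexokinase, had 8.49 to 8.58 in PTZ+ Mannitol against 8.62 to 9.80, and fell by 0.60 ± 0.03 (adjusted p = 1.3e-24). CG6083, an aldo-keto reductase, and Pmm2, a phosphomannomutase, rose by 0.61 ± 0.04 and 0.50 ± 0.03, both without overlap.

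Glut1, a glucose transporter, had 5.52, 5.75, 5.51 and 5.74 in PTZ+ Mannitol, against 6.30, 6.99 and 7.45 as the lowest, median and highest of the others. It fell by 1.35 ± 0.04 (adjusted p = 1.51e-31), the 4 arrays lying below all 20. A second probe set fell by 0.47 ± 0.05, and the dimmest, at a difference of 0.05 ± 0.08, did not pass the test. Of all 22 sugar transporters 10 rose, 3 fell, Glut1 included, and 9 did not pass the test. G6P, glucose-6-phosphatase, had 6.80, 6.80, 6.76 and 6.89, against 5.42 to 6.14 with a median of 5.87, and rose by 0.94 ± 0.06 (adjusted p = 2.24e-20).

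Pepck1, the carboxykinase of gluconeogenesis, had 9.64, 9.61, 9.61 and 9.63, against 9.98, 10.34 and 11.16 as the lowest, median and highest of the others, and fell by 0.83 ± 0.04 (adjusted p = 1.39e-22). Pepck2 fell by 0.57 ± 0.07 (adjusted p = 1.71e-10), with overlap. Of 16 glycolysis and gluconeogenesis genes 2 rose and 7 fell. sug (sugarbabe), a sugar-sensing transcription factor, fell by 0.67 ± 0.07, and Lsd-2, a lipid droplet protein, by 0.52 ± 0.02. Without levetiracetam and oxaprozin the difference of sug was -0.41. mag (magro), a gut lipase, rose by 0.92 ± 0.08 to a mean of 4.94 in PTZ+ Mannitol, against 4.71 in the olmesartan combination, whose arrays overlap with it. Tps1, the enzyme of trehalose synthesis, fell by 0.44 ± 0.04, but without levetiracetam and oxaprozin the difference was -0.05 and did not pass the test.

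The osmotic agent was also set against genes of water and ion transport. Of 25 such genes 6 rose and 10 fell, with a median of 0.00, and 6 to 10 fell under the other settings. Drip, an aquaporin, had 5.32, 5.39, 4.99 and 5.06 in PTZ+ Mannitol, against 5.21, 5.50 and 6.03 as the lowest, median and highest of the others, with overlap, and fell by 0.41 ± 0.07 (adjusted p = 1.96e-06), and by 0.20 without levetiracetam and oxaprozin. NKCC, a sodium, potassium and chloride cotransporter, fell by 0.40 ± 0.04 (adjusted p = 5.36e-13) without overlap, and by 0.26 against the glucosamine combination alone. Nhe2, a sodium and proton exchanger, fell by 0.41 ± 0.10 (adjusted p = 0.000556), near the lower end of the scale at 2.96 to 3.11, and with the bioB level as a block it did not pass. Of 13 carbonic anhydrases, which interconvert carbon dioxide and bicarbonate, 5 fell and 1 rose. CAH2 had 6.41, 6.47, 6.52 and 6.54, against 6.66 to 7.72, and fell by 0.71 ± 0.04 (adjusted p = 4.02e-20). CAH7 fell by 0.61 ± 0.03 (adjusted p = 2.39e-23), by 0.38 without levetiracetam and oxaprozin, and by 0.28 against glucosamine alone. CAH5 fell by 0.24 ± 0.05, and this did not pass with the bioB block or without levetiracetam and oxaprozin. Fallen carbonic anhydrases numbered 2 to 4 under the 5 settings.

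Detoxification genes rose more often than they fell. Of 34 glutathione S-transferases 20 rose and 6 fell, with a median of 0.18. The median level over the list was 8.05 to 8.15 in PTZ+ Mannitol and 7.21 to 7.71 in the others. GstE7 had 9.85, 9.93, 9.91 and 9.90, against 8.90, 9.07 and 9.43 as the lowest, median and highest of the others, and rose by 0.81 ± 0.03 (adjusted p = 1.12e-28). GstD2 rose by 0.77 ± 0.05 (adjusted p = 2.54e-19), and GstE3 fell by 0.70 ± 0.03 (adjusted p = 9.93e-26). Risen transferases numbered 16 to 21 and fallen ones 3 to 6 under the other settings.

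Of 80 cytochrome P450s 26 rose and 13 fell, with 20 to 36 risen and 5 to 13 fallen under the other settings. The risen share was 32.5%, beside 24.5% of all genes. Over this list the median level was 6.38 to 6.47 in PTZ+ Mannitol, within the 6.21 to 6.54 of the others. Cyp4ac3 had 8.04, 7.94, 7.98 and 8.00 in PTZ+ Mannitol, against 6.35 to 7.41 with a median of 7.14, and rose by 0.98 ± 0.04 (adjusted p = 2.96e-26). Cyp4g1, the oenocyte enzyme that makes cuticular hydrocarbons, was 5.73 to 5.90 in PTZ+ Mannitol and ran from 3.48 to 9.72 in the others, so its difference of -0.75 ± 0.09 rests on the glucosamine combination, at 9.64, and was 0.019 without it. Cyp4g15 fell by 0.75 ± 0.05 (adjusted p = 8.19e-19), by 0.46 without levetiracetam and oxaprozin, and by 0.19 against glucosamine alone. MtnD, a metallothionein, rose by 0.72 ± 0.06 to 8.67 in PTZ+ Mannitol, against 8.71 in the olmesartan combination, so it was not higher than every other group. Hsp26, a small heat shock protein, rose by 1.11 ± 0.06 (adjusted p = 2.79e-22), at 8.30 in PTZ+ Mannitol, against 8.16 in the levetiracetam combination, whose arrays overlap with it. Its relative Hsp27 rose by 0.71 ± 0.06. Of 11 heat shock and chaperone genes 5 rose and 5 fell.

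Of 69 mitochondrial ribosomal proteins 36 rose and 20 fell, and the 4 arrays lay above all others for 30 and below for 0. Without the levetiracetam and oxaprozin combinations 41 rose and 3 fell. mRpL41 had 8.91, 8.96, 8.97 and 9.01 in PTZ+ Mannitol, against 7.79, 8.09 and 8.39 as the lowest, median and highest of the others, and rose by 0.86 ± 0.03 (adjusted p = 5.06e-29). mRpS21 rose by 0.86 ± 0.03 (adjusted p = 1.99e-28). Cytosolic ribosomal proteins split, 13 of 40 risen and 20 fallen. RpL28 had 10.51, 10.50, 10.50 and 10.54, against 11.06 to 12.24, and fell by 1.19 ± 0.03 (adjusted p = 7.7e-37), while RpS28a, at low levels of 4.92 to 5.15 against 3.88 to 4.79, rose by 0.79 ± 0.07.

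Of 40 proteasome subunits 6 rose and 19 fell, but without levetiracetam and oxaprozin 10 rose and 11 fell, and against the glucosamine combination alone 10 rose and 10 fell. Rpn5, of the regulatory particle, fell by 0.84 ± 0.03 (adjusted p = 1.72e-26) and Prosalpha3, of the core, by 0.56 ± 0.04 (adjusted p = 9.22e-16), both without overlap. Without levetiracetam and oxaprozin the difference of Prosalpha3 was -0.22. Muscle genes were split, with 9 of 24 risen and 11 fallen. up (upheld), troponin T, had 4.95, 5.20, 5.35 and 5.29, against 5.53, 6.52 and 7.84 as the lowest, median and highest of the others, and fell by 1.48 ± 0.05 (adjusted p = 1.33e-28), or by 0.93 without levetiracetam and oxaprozin. Msp300, a giant nesprin that anchors nuclei, fell by 1.22 ± 0.04 (adjusted p = 1.21e-30) on its brightest probe set, with overlap, and 3 of its 5 other probe sets fell too. TpnC41C and TpnC4, both troponin C genes, rose by 0.86 ± 0.03 and 0.75 ± 0.05, and TpnC4 by 0.40 without levetiracetam and oxaprozin.

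**Figure D3:**
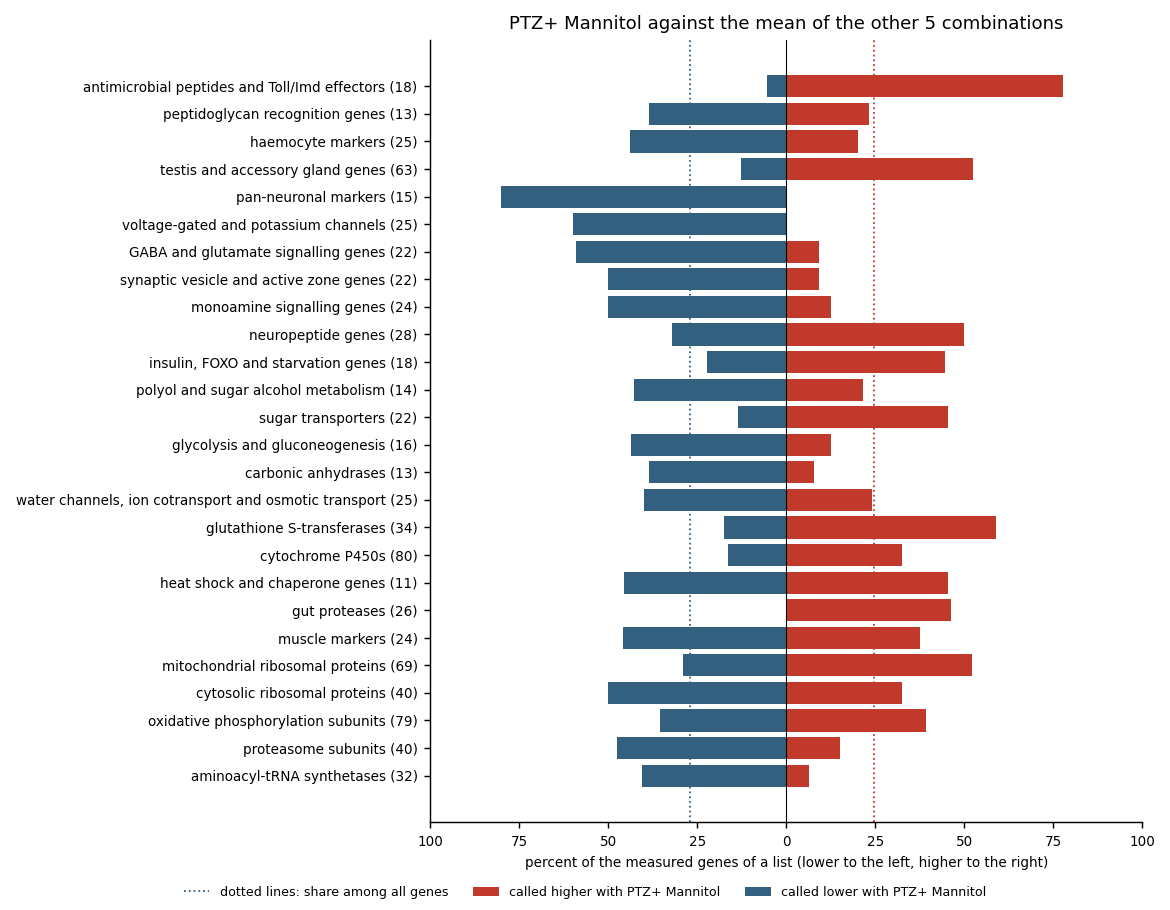
Percent of the measured genes of each list that rose (red, to the right) or fell (blue, to the left) in PTZ+ Mannitol against the mean of the other 5 combinations; the number of genes is in parentheses. The dotted lines mark the shares among all genes, 24.5% and 27.0%; among the 26 lists shown, antimicrobial peptides (14 of 18 risen) reach farthest to the right and pan-neuronal markers (12 of 15 fallen) farthest to the left.

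The design also shows whether mannitol stood apart in the same way when no PTZ was given. Mannitol was set against the mean of levetiracetam, glucosamine, olmesartan and quinapril, and PTZ+ Mannitol against the mean of the same 4 with PTZ. The 2 comparisons share no arrays, and the test of their difference is an interaction. Without PTZ 33.5% of probe sets, or 6284, changed. All 4 Mannitol arrays were at the upper bioB level, against 1 array each of olmesartan and quinapril and 0 of levetiracetam and glucosamine. With that level as a block 3851 changed, 54.9% of them higher, where 45.8% were higher without the block. At 1 probe set a gene, 19.3% of genes were higher with mannitol and 21.3% lower. With PTZ, against the 4 matched combinations, 50.4% of genes changed. The interaction passed the test upward for 19.8% of probe sets and downward for 20.2%, and for 24.7% and 23.0% of genes.

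Across 11982 genes the 2 sets of differences had a Pearson correlation of -0.07 and a Spearman correlation of -0.02, given as a description, since genes are not independent and the group means in each comparison share arrays. Of 3314 genes called in both, which is 54.9% of those called with PTZ and 68.0% of those called without it, 1637 had the same sign and 1677 opposite signs. Among those of opposite sign, 757 were higher with PTZ and lower without it, and 920 lower with PTZ and higher without it. Across genes, the differences of mannitol from the other compounds had no shared direction with and without PTZ.

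**Figure D4:**
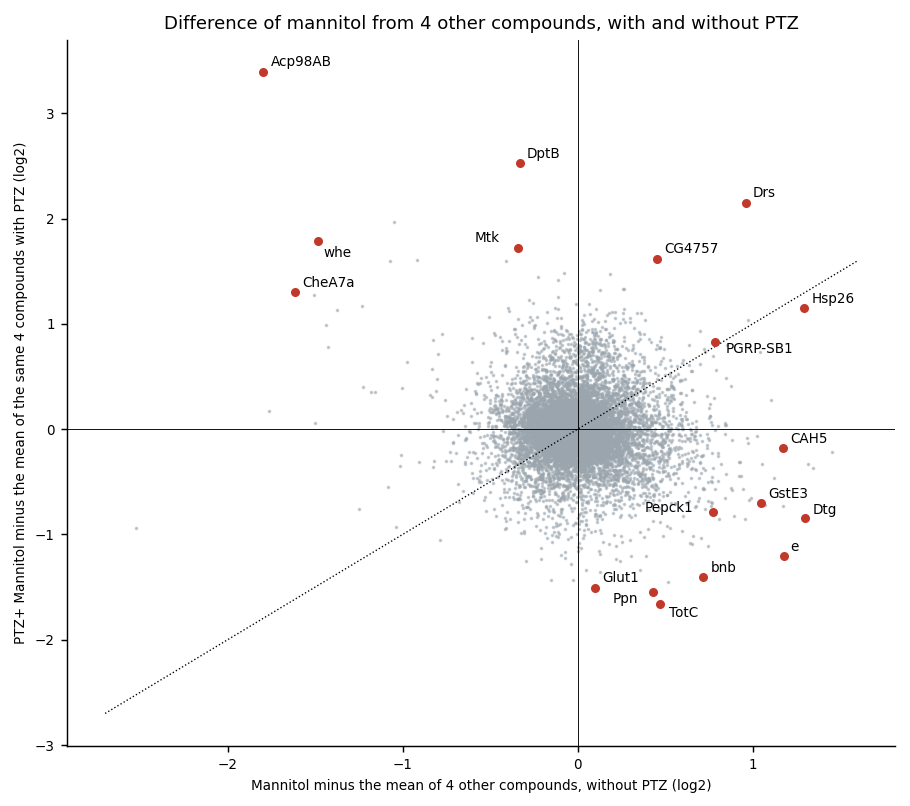
Each point is a gene, with the log2 difference of PTZ+ Mannitol from the mean of 4 other PTZ combinations on the y axis and that of Mannitol from the same 4 compounds without PTZ on the x axis; the dotted line marks equal differences. Drs, Hsp26, PGRP-SB1 and CG4757 are positive on both axes, while e, Pepck1, bnb and Ppn are negative with PTZ and positive without it.

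Several genes of the haemocyte marker list differed in sign between the settings. Hml was at 4.71 in PTZ+ Mannitol, against group means of 5.17 to 6.36 in the other combinations, but without PTZ it averaged 6.72 with mannitol, against 5.89 to 6.19 with the 4 compounds. The rise without PTZ was 0.70 ± 0.05 (adjusted p = 1.1e-17), and the difference of differences was -1.74 ± 0.07 (adjusted p = 3.4e-27). Ppn, vkg, Col4a1 and Sr-CI likewise rose without PTZ, by 0.30 to 0.64, with differences of differences of -1.98, -1.73, -1.35 and -1.47. In the list, 16 of 25 haemocyte markers rose with mannitol alone and 1 fell, and the interaction was negative for 15 and positive for 2.

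Pepck1 averaged 11.97 with mannitol and 11.20 over the 4 compounds without PTZ, a rise of 0.77 ± 0.04, and its difference of differences was -1.56 ± 0.06 (adjusted p = 8.4e-27). e averaged 6.39 with mannitol and 5.21 over the 4 compounds, a rise of 1.18 ± 0.05, and its difference of differences was -2.39 ± 0.07 (adjusted p = 5.8e-31). CAH5 rose by 1.17 ± 0.05 with mannitol alone, and the difference was -1.35 ± 0.07 (adjusted p = 9.1e-23), but its fall with PTZ did not pass without levetiracetam and oxaprozin. Sodh1 rose by 0.29 ± 0.04 without PTZ, with a difference of -0.50 ± 0.06 that was -0.19 with levetiracetam left out on both sides, and its difference with PTZ turned to 0.011 without levetiracetam and oxaprozin. bnb, Rbp6 and Dtg, a gene named as a target of Dpp signalling, rose by 0.72, 0.52 and 1.30 without PTZ, with differences of -2.13, -1.97 and -2.14. With PTZ, Dtg was lower by the mean of the 5 combinations but differed by 0.24 against the glucosamine combination alone. TotC, a Turandot stress peptide, fell in PTZ+ Mannitol by 1.32 ± 0.06, resting on the levetiracetam and glucosamine combinations at 8.70 and 7.21, rose by 0.47 ± 0.06 without PTZ, and had a difference of -2.13 ± 0.09.

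Neuronal lists fell in part without PTZ too. With mannitol alone 10 of 15 pan-neuronal markers fell and 1 rose, 13 of 22 synaptic genes fell and 1 rose, 12 of 25 channel genes fell and 2 rose, and 11 of 14 cholinergic genes fell and 0 rose. The interaction was positive for 2 and negative for 8 pan-neuronal markers, 9 and 7 synaptic, 4 and 12 channel, and 6 and 3 cholinergic genes. elav differed by 0.01 ± 0.04 with mannitol alone, which did not pass the test, and its difference of differences was -1.09 ± 0.06 (adjusted p = 3.2e-22). Hk differed by -0.03 ± 0.04 and Glut1 by 0.10 ± 0.04 without PTZ, neither passing, with differences of -1.40 ± 0.06 and -1.60 ± 0.06. Rdl fell in both settings, by 0.31 ± 0.04 without PTZ, with a difference of -0.66 ± 0.05. SIFa, NPF, Ilp5 and G6P went upward, with differences of 1.15, 0.93, 0.77 and 1.11. Of these SIFa did not pass the test without PTZ, at -0.10 ± 0.05, and G6P fell there, by 0.19 ± 0.06.

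Of the 18 antimicrobial peptides and effectors 9 rose, 3 fell and 6 did not pass with mannitol alone, and the interaction was positive for 11 and negative for 2. Drs rose in both settings, by 0.96 ± 0.04 without PTZ, and more with it, at a difference of 1.19 ± 0.05 (adjusted p = 2.3e-24). DptB and Mtk fell without PTZ, by 0.33 ± 0.05 and 0.34 ± 0.04, and had differences of 2.86 ± 0.07 and 2.07 ± 0.05. Def differed by 0.02 ± 0.04 without PTZ, with a difference of 0.92 ± 0.06. Without PTZ the olmesartan arrays were the highest for these genes and weigh on these values. For DptB they were at 8.90 to 9.09, against 7.63 to 7.87 in Mannitol and 7.28 to 8.12 with levetiracetam, glucosamine or quinapril. The same ranges were 10.26 to 10.44, 9.39 to 9.49 and 9.42 to 9.74 for Mtk, and 9.54 to 9.55, 8.43 to 8.60 and 7.67 to 8.44 for Def. With olmesartan left out on both sides, 10 of the 18 genes rose with mannitol alone and 1 fell. The interaction was then positive for 8 and negative for 3. For some genes the interaction did not pass: PGRP-SB1 differed by 0.04 ± 0.05 (adjusted p = 0.55), Hsp26 by -0.15 ± 0.08 (adjusted p = 0.17) and Hsp27 by 0.04 ± 0.09 (adjusted p = 0.76). Without PTZ these genes rose by 0.78 ± 0.04, 1.29 ± 0.06 and 0.72 ± 0.06.

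The greatest positive differences were those of Acp98AB (5.19 ± 0.13), whe (3.27 ± 0.07), CG16826 (3.02 ± 0.15), CheA7a (2.91 ± 0.06), DptB and Mst57Da (2.78 ± 0.11), with EbpII at 2.67 ± 0.12. For Acp98AB and Mst57Da 1 compound sets much of the size. Flies fed levetiracetam alone had Acp98AB at 9.37 and Mst57Da at 8.76, the highest of the 4 group means. With levetiracetam left out on both sides the differences were 3.56 for Acp98AB and 1.40 for Mst57Da, and 14 of the 63 testis and accessory gland genes had a positive interaction where 37 had one before. whe, CG16826 and CheA7a kept differences of 2.95, 2.71 and 2.89 without levetiracetam.

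**Figure D5:**
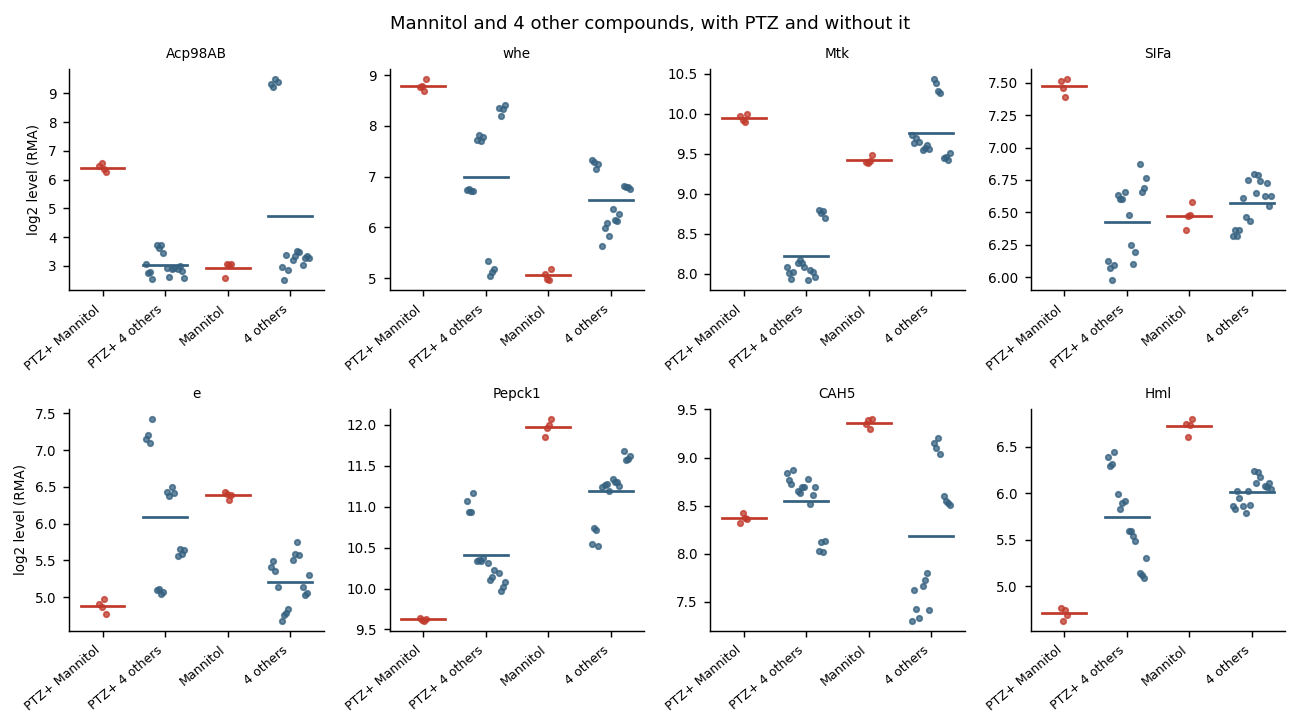
Log2 levels (y axis, RMA) of 8 genes in single arrays (points) of PTZ+ Mannitol, of the 4 other combinations, of Mannitol and of the same 4 compounds without PTZ, from left to right; lines are the means of the group means. e, Pepck1, CAH5 and Hml lie below the mean of the other combinations in PTZ+ Mannitol and above the mean of the other compounds in Mannitol, and Acp98AB averages 9.37 in the levetiracetam arrays, the high points of the last column.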

How the data were processed

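Per the labels' protocols, 250 ng of total RNA from heads went to each Affymetrix Drosophila 2.0 array. The authors deposited log2 values for 18952 probe sets on 58 arrays, and the submitters' processing notes name RMA and limma, without versions. RMA removes shifts shared by most transcripts and compresses differences of dim probe sets. Array medians ran from 3.68 to 3.85. The 183 control probe sets were left out, leaving 18769. The platform annotation gives 13647 of them 1 gene symbol, 402 several and 4720 none, and 13544 were matched to RefSeq for current symbols. The probe set with the highest mean stood for each of 11982 genes.

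Contrasts came from limma 3.58.1 in R 4.3.3, fitted to all 58 arrays with 1 mean for each group, with empirical Bayes moderation, which was not trended, and Benjamini-Hochberg adjustment over all 18769 probe sets in each contrast. PTZ+ Mannitol was also set against each of the 5 combinations singly. Calls were made at an adjusted p under 0.05. The members, the 47 gene lists and the tests were chosen with earlier results of these data known. Named were part of the 14 greatest rises and falls without overlap, and up to 5 called genes of greatest change a list. Some members of 3 metabolic and transport lists and the 6 greatest interactions of each sign were named too. The number of arrays limits the precision. For the 5′ to 3′ measure, the signal of the 3′ control probe set was subtracted from the 5′ one for eIF-4a and GAPDH, and both were averaged. Arrays with bioB more than 3 below bioC were taken as the lower bioB level. Alternatives were a trended variance with robust moderation, quantile normalization applied again, leaving out the 40% dimmest probe sets, the 24 arrays alone, the replicate number as a block, the 5′ to 3′ covariate, the bioB block, leaving out each combination or array, and averaging all probe sets of a gene. Chosen after seeing the data were 2 narrower references, leaving out 2 arrays at the upper bioB level, and leaving out each of the 4 compounds on both sides. The code was tested on simulated data. Figures used Python 3.11.15 and matplotlib 3.10.9.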

Additional observations from a re-analysis of the deposited data

Results flagged for a closer look

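In 108 groups of 4 values (the 102 named genes in PTZ+ Mannitol and the 5′ to 3′ measure in 6 combinations), 5 had 1 array far from the other 3, where chance gives about 1 in 20. The far array was at 8.99 for DptB, 5.32 for Mst57Da, 4.45 for SP, 10.08 for Ekar and 6.35 for foxo. The gap was widest for SP and Mst57Da. All 5 genes kept direction and call in the comparison with the other combinations when any 1 of the 24 arrays was left out.

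The interaction passed the test for 99 of the 102 named genes, a share that follows from how they were chosen. They were named for great differences in PTZ+ Mannitol, which are a part of the interaction, or for the interaction itself. Their share is thus not comparable with the 24.7% upward and 23.0% downward over all genes. Values are given for 31 of the named genes. Upward with PTZ were the immune genes DptB (2.86), Mtk (2.07), Drs (1.19) and Def (0.92), the seminal genes Acp98AB (5.19), Mst57Da (2.78) and EbpII (2.67), whe (3.27), CG16826 (3.02) and CheA7a (2.91), and SIFa (1.15), G6P (1.11), NPF (0.93) and Ilp5 (0.77). Downward were Ppn (-1.98), Hml (-1.74), vkg (-1.73), Sr-CI (-1.47) and Col4a1 (-1.35) of the haemocyte marker list. The neuronal genes Hk (-1.40), elav (-1.09) and Rdl (-0.66) were downward too. So were e (-2.39), Dtg (-2.14), TotC (-2.13), bnb (-2.13), Rbp6 (-1.97), Glut1 (-1.60), Pepck1 (-1.56), CAH5 (-1.35) and Sodh1 (-0.50). All 31 kept direction and call with each of the 4 compounds left out in turn on both sides.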

How the results depend on the processing

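The count of 8347 probe sets stayed between 5626 (bioB block) and 8617 under the alternatives that left out no single array, and between 7625 and 8393 without single arrays. Called against all 5 combinations were 2467, with 1686 to 2553 under the alternatives, and the share called higher among them was 53.2%, or 63.0% with the bioB block. Leaving out single arrays gave 2313 to 2473 there, 5557 to 6323 for mannitol without PTZ and 7087 to 7550 for the interaction. For mannitol without PTZ the 6284 calls became 3851 with the bioB level as a block, where the share higher was 54.9%, and the cause was not tested. Of 102 named genes, 96 kept direction and call under every alternative of the main comparison; the direction turned for Sodh1 (0.011 without levetiracetam and oxaprozin, 0.10 against glucosamine alone), Cyp4g1 (0.019 without glucosamine) and Dtg (0.24 against glucosamine alone), and Tps1, CAH5 and Nhe2 lost their call under 1 or 2. Replicate numbers did not pair the arrays: the correlation of deviations over 60 same-numbered pairs was -0.06 to 0.27, with 8 over 0.1, 10 of 24 arrays correlated best with their own number, and the replicate block gave 8362 calls in the main comparison, 2476 against all 5, 6292 without PTZ and 7502 for the interaction. With all probe sets of a gene averaged, 6 of 47 list medians moved by more than the spread between arrays. Pan-neuronal markers (-0.46) and mitochondrial ribosomal proteins (0.26) were among them. The median of muscle markers went from -0.02 to -0.12, and that of phototransduction and retina genes from 0.02 to -0.06.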

Other observations

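Muscle and glial genes, which showed no shared direction or a partial one with PTZ, moved more uniformly in the comparison without it. With mannitol alone 17 of 24 muscle markers fell and 3 rose against the mean of the other 4 compounds, with a median of -0.37, and the interaction was positive for 15 and negative for 4. Of 19 glia markers 14 rose with mannitol alone and 0 fell, while 5 rose and 10 fell in PTZ+ Mannitol, and the interaction was negative for 13 and positive for 4. TpnC41C, a troponin C, rose by 0.86 ± 0.03 with PTZ and fell by 0.83 ± 0.03 without it.

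Proteasome subunits gave a like contrast, while mitochondrial ribosomal proteins rose more often than they fell in both settings. Of 40 proteasome subunits 24 rose and 2 fell with mannitol alone, and the interaction was negative for 23 and positive for 5. With PTZ 6 rose and 19 fell, but 10 rose and 11 fell without the levetiracetam and oxaprozin combinations. Of 69 mitochondrial ribosomal proteins 36 rose and 20 fell with PTZ, and 43 rose and 6 fell without it. Their interaction was positive for 33 and negative for 24. Detoxification genes likewise rose more often than they fell in both settings. Without PTZ 23 of 34 glutathione S-transferases rose and 1 fell, and 39 of 80 cytochrome P450s rose and 6 fell. The interaction was positive for 11 and negative for 11 of the transferases, and for 19 and 31 of the P450s.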
